A study of Mus musculus with 18 samples.

Results

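MHC class I molecules display peptides from inside the cell on its surface, and 9 mouse genes of this pathway were followed in palate at embryonic day 15.5: the heavy chains H2-K1, H2-D1 and H2-T23, the light chain B2m, the peptide transporter subunits Tap1 and Tap2, the loading factor Tapbp, and the proteasome subunits Psmb8 and Psmb9. The genes were chosen by symbol, and the list was drawn up with earlier results of these arrays known. Which of those results chose it is not recorded. The differences between mutant and control palate are therefore given as values that may have chosen the list, as a description, and nothing rests on them. Of 45037 probe sets on the array, 25 carried 1 of these symbols and no other, and they covered 8 of the 9 genes. H2-T23 had only probe sets shared with another gene symbol, and its level is not analysed here. H2-D1 had 9 probe sets, H2-K1 and Tap1 had 4 each, B2m, Tapbp and Psmb8 had 2 each, and Tap2 and Psmb9 had 1 each.

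RNA of palate tissue was measured on 18 1-colour Affymetrix arrays, 6 for each of 3 groups, all of the C57BL/6J strain according to the labels. Anterior and posterior palate came from Tgfbr2 fl/fl controls, which carry floxed alleles of a TGF-beta receptor and no recombinase. Posterior palate also came from Tgfbr2 fl/fl;K14-Cre mutants, in which a keratin promoter drives the recombinase in epithelial cells, so that the mesenchyme, muscle, vessels and leukocytes of the same tissue keep the receptor. The embryos' sex was not determined, mutants and controls came from separate litters, and the labels leave unsaid whether each sample holds 1 embryo or several. Genotype and litter cannot be told apart, and p-values measure only the spread between these samples, which may be technical. The series description gives 5 samples per group where 6 are labelled, and all 6 were used. The study asked how loss of TGF-beta signalling in epithelium affects palatal epithelium and muscle fibres, and it did not set out to compare antigen presentation.

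A class I molecule is a polymorphic heavy chain held by the invariant light chain beta-2 microglobulin. Peptides are cut by the proteasome, in which the interferon-inducible subunits Psmb8 and Psmb9 can replace constitutive ones, and are carried into the endoplasmic reticulum by the Tap1 and Tap2 dimer. Tapasin, the product of Tapbp, holds the empty heavy chain at that transporter until a peptide fits. H2-K1 and H2-D1 are the classical heavy chains, their sequences differ between mouse strains, and they resemble each other and other class I genes closely. Nearly all nucleated cells make class I, and embryonic tissues generally make little of it compared with adult lymphoid tissue. All the members lie in the major histocompatibility complex on chromosome 17 except B2m, on chromosome 2.

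The upstream sequences of the heavy chains H2-K1 and H2-D1 and of the light chain B2m are shown. The pathway's genes are commonly described as sharing regulatory elements, and heavy chain and light chain differ here in how they read on the arrays. RefSeq windows of 300 bases, from 250 before to 50 after an annotated start (build GRCm38.p6), were held for 8 of the 9 members, Tap2 being the exception. H2-K1 had 2 windows, and its stretch comes from 1 of them, at bases -134 to 8 from that window's start. This stretch lies inside the annotated span of H2-K1, chr17:33996012-34000619, so it is upstream of that start and not of the whole gene. Both strands were searched for 4 motifs: the kappaB motif GGGATTCCC, the site alpha core TGACGC, the interferon element GAAANNGAAA, and CCAAT, which reads as ATTGG on the other strand. None of these motifs overlaps another within the stretches shown. Capitals mark the matches, and each sequence is given in the direction of transcription.

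H2-K1 upstream stretch, chr17:34000325-34000467, minus strand: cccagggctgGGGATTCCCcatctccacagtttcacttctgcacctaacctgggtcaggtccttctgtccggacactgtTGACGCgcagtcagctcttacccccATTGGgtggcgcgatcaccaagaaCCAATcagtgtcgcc
H2-D1 upstream stretch, chr17:35262914-35263055, plus strand: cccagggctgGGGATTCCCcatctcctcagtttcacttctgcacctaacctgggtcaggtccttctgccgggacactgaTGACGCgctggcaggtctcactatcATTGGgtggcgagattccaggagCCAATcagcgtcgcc
B2m upstream stretch, chr2:122147538-122147648, plus strand: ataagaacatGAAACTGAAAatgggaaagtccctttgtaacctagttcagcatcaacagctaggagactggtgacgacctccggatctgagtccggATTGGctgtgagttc

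The H2-K1 and H2-D1 stretches were identical at 111 of their first 142 bases without gaps (78.2%), and both held the kappaB and site alpha motifs. The kappaB motif was in 0.353% and the site alpha core in 7.40% of 32851 RefSeq windows of the same length. The interferon element was in the windows of B2m and H2-T23, and in 3.44% of all windows. CCAAT was in 7 of the 8 members' windows, all but Psmb8, and in 37.4% of all windows. A match is a description of letters in the window and shows no binding. Only the letters given were searched, so variants of a motif were not counted. The lack of a match does not show that an element is absent.

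Values are log2 intensities as the authors normalised them, and a probe set was called when its adjusted p was under 0.05 over all 45037 probe sets (limma, 1 fit over the 3 groups). Array means lay between 6.26 and 6.37. Spike-in controls, which are added to the RNA or the hybridisation mix and carry no palate signal, split each genotype into arrays 1 to 3 and arrays 4 to 6. The hybridisation controls averaged 10.2 to 10.3 in control arrays 1 to 3 and 10.6 to 10.9 in control arrays 4 to 6, and 11.1 to 11.7 and 10.4 to 10.5 in the same mutant arrays. The labelling controls averaged 8.11 to 8.30 in control arrays 1 to 3, 9.05 to 9.66 in control arrays 4 to 6 and 6.39 to 7.73 in mutant arrays, where they did not separate the sets. No label names these sets. All mutant arrays lay below all control arrays in the labelling controls, so genotype cannot be told apart from a difference in array processing. The brightest Tgfbr2 probe set was called higher in mutants (log2 difference from posterior controls 0.55, SE 0.13, adjusted p = 0.00972, limma), so the array did not show the deletion in whole tissue. Tissue makeup is described beside the results below, and fewer cells of a type and less RNA per cell cannot be told apart in such samples.

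The heavy chain probe sets differed between mutant and control posterior palate in both directions at once. Of 13 heavy chain probe sets, 4 read higher and 4 read lower in mutants at the calling threshold, and of the 12 probe sets of the other members none was called in either direction. With the 4 array sets described above as a random block, 4 were higher and 1 lower. These sets lie within genotype, so the block does not remove a processing difference between mutants and controls. Over all probe sets 10.7% were called, 6.44% higher and 4.30% lower in mutants. In all 8 called heavy chain probe sets the 6 mutant values lay entirely outside the 12 control values, while mutant and control posterior values did not overlap in 5.47% of all probe sets. Nothing is read from these shares, since the list may have been chosen from them. The median difference was 0.17 over the 13 heavy chain probe sets and -0.09 over the other 12, against 0.05 over all probe sets.

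The brightest H2-K1 probe set (1451931_x_at) read 9.02, 9.30 and 9.40 as lowest, median and highest value in control posterior palate, and 6.25, 8.34 and 8.60 in mutants. The log2 difference was -1.24 (SE 0.28), with means of 9.27 ± 0.14 and 8.03 ± 0.88 (SD, n = 6 each). Mutant arrays 1 to 5 lay close together between 8.26 and 8.60, below every control, and mutant array 6 stood far beneath them. The next H2-K1 probe set (1425336_x_at) went the other way, at 8.28, 8.55 and 8.56 in control posterior palate and 8.98, 9.26 and 9.87 in mutants, a difference of 0.83 (SE 0.12). Here every mutant lay above every control, and mutant array 6 was the highest. The same gene symbol thus read lower by one probe set and higher by another on the same 12 arrays.

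Another H2-K1 probe set (1427746_x_at) read 6.40 to 6.67 in control posterior palate and 6.32 to 7.93 in mutants. Its difference was 0.53 (SE 0.17), it was not called, and mutant array 1 lay below all the posterior controls while mutant array 6 was again the highest. It was called in mutant arrays 4 to 6 alone (0.89) and not in arrays 1 to 3 alone (0.17), and it was also called with array weights, among probe sets above the overall median, and without mutant array 1 or 2. The dimmest (1450534_x_at) overlapped between the groups, with a difference of 0.27 (SE 0.14).

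H2-D1, the other classical heavy chain, showed the same split over its 9 probe sets. Its brightest (1425545_x_at) read 9.14, 9.55 and 9.64 in control posterior palate and 5.00, 8.56 and 8.70 in mutants, a difference of -1.52 (SE 0.45). The next (1451784_x_at) read 9.21, 9.49 and 9.66 against 4.87, 8.39 and 8.74, a difference of -1.59 (SE 0.45). In both, mutant array 6 was more than 3 units below the other mutants, and those others were still below every control. A dimmer one (1451683_x_at) read 5.98, 6.28 and 6.75 against 3.78, 5.12 and 5.60, a difference of -1.40 (SE 0.22), with mutant array 6 lowest once more.

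Of the H2-D1 probe sets, 3 read higher in mutants. Probe set 1425614_x_at read 3.84, 4.11 and 4.27 in control posterior palate and 6.90, 7.72 and 9.33 in mutants, a difference of 3.83 (SE 0.27, 95% interval 3.28 to 4.39), which is 14.3-fold. Probe set 1427651_x_at read 3.99, 4.12 and 4.16 against 5.26, 6.96 and 8.68, a difference of 2.80 (SE 0.38). Probe set 1452544_x_at read 6.27 ± 0.08 (mean ± SD, n = 6) in control posterior palate, with lowest, median and highest values of 7.86, 8.32 and 9.37 in mutants, a difference of 2.19 (SE 0.17). The control values of 1425614_x_at and 1427651_x_at lay near the lower end of the array's range, where a level may be background. No detection call was used, and their folds depend on that background.

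The remaining H2-D1 probe sets differed less. Probe set 1426324_at differed by -0.31 (SE 0.11), 1451934_at by 0.03 (SE 0.08) and 1450170_x_at by 0.17 (SE 0.09), and none was called. In mutant arrays 1 to 3 alone 1426324_at was called at -0.43 and 1450170_x_at at 0.30. Without mutant array 4, 1426324_at was called at -0.38.

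**Figure D1:**
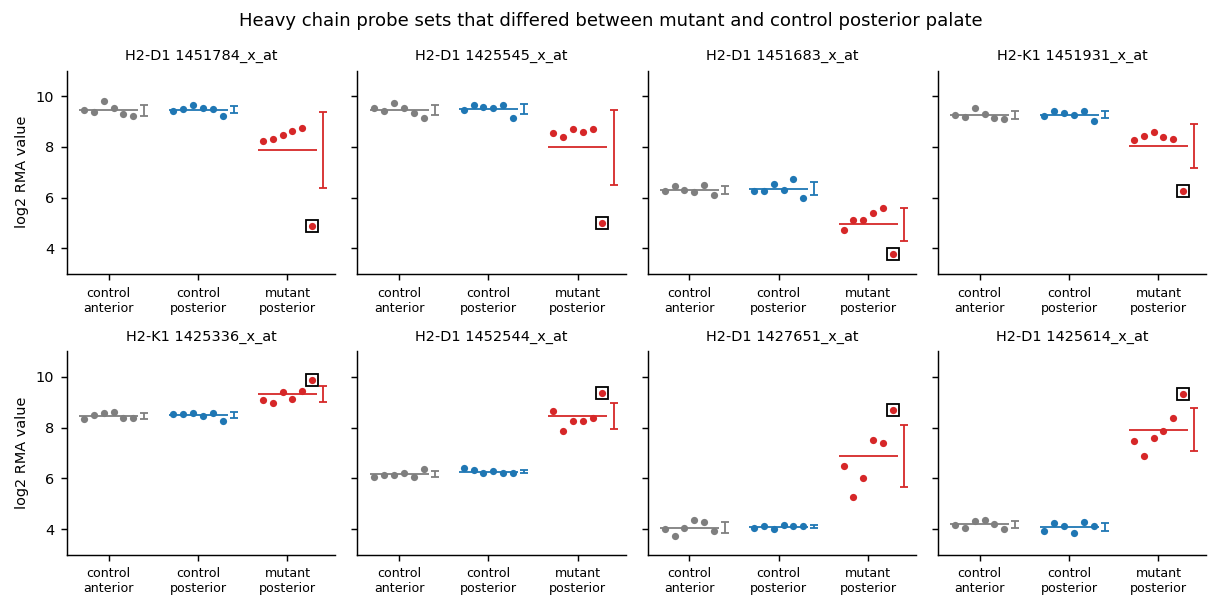
Log2 RMA values (y axis) of the 8 called heavy chain probe sets in each array of the control anterior, control posterior and mutant posterior groups (x axis), ordered from the most negative to the most positive mutant difference. Each point is an array, the horizontal line is the group mean, the bar beside it is the SD (n = 6), and the box marks mutant array 6, which is the extreme mutant array in all 8 panels.

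Mutant array 6 was the lowest of its group in all 4 probe sets called lower and the highest in all 4 called higher. Against the control posterior mean it read from -2.57 to -4.59 in the first kind, where mutant arrays 1 to 5 read from -0.68 to -1.64. In the second kind it read from 1.38 to 5.25. The direction did not rest on it: without that array the H2-K1 differences were -0.88 (1451931_x_at) and 0.72 (1425336_x_at), and those of H2-D1 were -0.92 (1425545_x_at), -0.99 (1451784_x_at), -1.17 (1451683_x_at), 2.01 (1452544_x_at), 2.44 (1427651_x_at) and 3.55 (1425614_x_at), and all 8 were still called. Leaving out mutant array 6 moved the differences of both bright H2-D1 probe sets by over 1.5 times. Their SDs were 1.47 and 1.48 in mutants and 0.19 and 0.15 in posterior controls, and their calls were near the threshold. Leaving out posterior control array 1, 2, 3, 4 or 5 cost both their calls, and leaving out array 6 cost 1425545_x_at its call. The differences of the calls lost were -1.49 to -1.60. The lower calls of H2-K1 1451931_x_at and H2-D1 1451683_x_at held on leaving out any 1 array. Control arrays 1 to 3 alone left 3 higher calls and 0 lower.

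All 8 called probe sets carry the suffix _x_at, which the platform gives to probe sets whose probes also match other transcripts. The uncalled 1427746_x_at, 1450534_x_at and 1450170_x_at carry it too, and of the 13 heavy chain probe sets only 1426324_at and 1451934_at do not. The suffix is thus found on called and uncalled probe sets, and too few lack it for a comparison. Whether it bears on the calls was not tested. Neither the sequences of the probes nor the embryos' class I alleles were used here. A difference in allele between litters that alters probe binding was not tested, and a split of the signal between H2-K1, H2-D1 and other class I transcripts was not tested either. What can be set beside the heavy chains are genes of the same pathway and of the same chromosomal region, as follows.

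The light chain B2m, which every class I heavy chain needs, showed no called difference. Its brightest probe set (1449289_a_at) read 11.50, 11.73 and 12.11 in control posterior palate and 10.82, 11.53 and 12.04 in mutants. The difference was -0.29 (95% interval -0.67 to 0.10), and the second B2m probe set (1452428_a_at) differed by -0.08 (interval -0.45 to 0.30). The mutants were not uniform: arrays 1 to 3 read 10.82 to 11.29 and arrays 4 to 6 read 11.76 to 12.04. Mutant arrays 1 to 3 alone differed from all posterior controls by -0.71, past the threshold, and arrays 4 to 6 alone by 0.14, not past it. These are the array sets that the spike-in controls separate, and the part of the array set in the B2m level was not tested. Mutant array 6, lowest in the heavy chain probe sets called lower and highest in those called higher, had the highest mutant B2m reading.

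The transporter subunits were close between genotypes. Tap1 read 6.78 to 7.09 in control posterior palate and 6.51 to 6.95 in mutants by its brightest probe set (1416016_at), a difference of -0.20 (SE 0.09, interval -0.40 to -0.01). Its second probe set (1448177_at) differed by -0.26 (interval -0.51 to -0.01) and its dimmer ones by 0.04 and -0.09, and none was called. In mutant arrays 1 to 3 alone 1448177_at differed by -0.49, past the threshold, and in arrays 4 to 6 alone by -0.02. Tap2 (1453913_a_at) read 6.10, 6.26 and 6.41 against 5.93, 6.30 and 6.59, a difference of 0.05 (interval -0.14 to 0.24). Mutant and control values overlapped in every transporter probe set.

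Tapbp, the loading factor, read 8.92, 9.33 and 9.54 in control posterior palate and 8.92, 9.37 and 9.55 in mutants by its brightest probe set (1421812_at). The difference was 0.00 (interval -0.24 to 0.24), and that of the other probe set (1450378_at) was 0.01 (interval -0.25 to 0.27). The inducible proteasome subunit Psmb8 (1422962_a_at) read 6.90, 7.09 and 7.40 against 6.47, 6.85 and 7.22, a difference of -0.26 (interval -0.51 to -0.01). Psmb9 (1450696_at), the other such subunit, read 6.84 ± 0.12 against 6.63 ± 0.15 (SD, n = 6 each), a difference of -0.21 (interval -0.39 to -0.03). The groups overlapped in both. With each array centred on its median Psmb9 passed the threshold at -0.27, and after cyclic loess scaling likewise. Psmb8 passed it with array weights, at -0.37. In mutant arrays 4 to 6 alone both were called, Psmb8 at -0.46 and Psmb9 at -0.31, and in arrays 1 to 3 alone neither was, at -0.06 and -0.11.

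**Figure D2:**
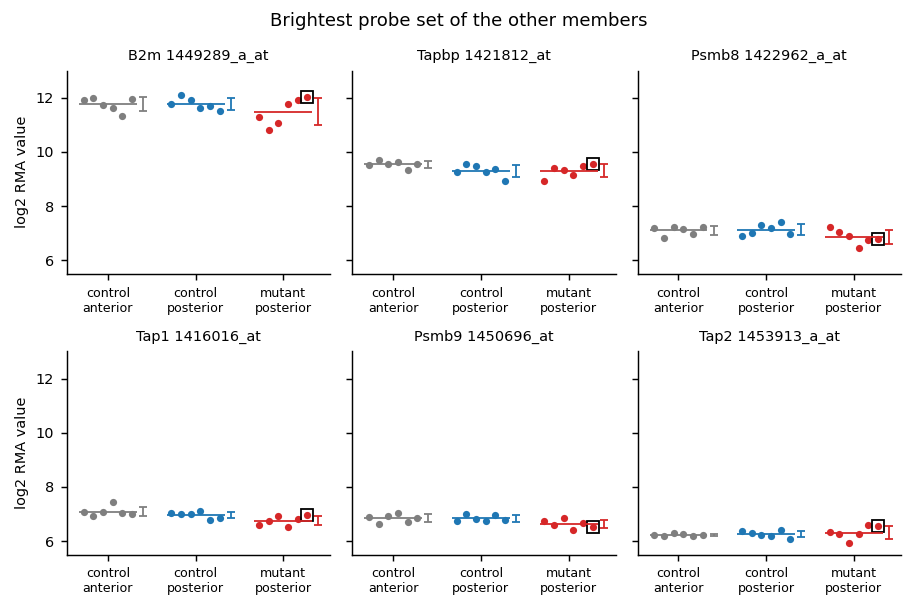
Log2 RMA values (y axis) of the brightest probe set of B2m, Tapbp, Psmb8, Tap1, Psmb9 and Tap2 in each array of the 3 groups (x axis). Points are arrays, the horizontal line is the mean, the bar is the SD (n = 6) and the box marks mutant array 6; mutant values overlap the control posterior values in all 6 panels, and the B2m values of mutant arrays 4 to 6 lie above those of mutant arrays 1 to 3.

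Between anterior and posterior palate of the controls none of the 25 probe sets was called, against 1.86% of all probe sets, and 1 of 25 had an unadjusted p under 0.05. The differences ran from -0.24 to 0.27. The most negative was Tapbp (1421812_at), at 9.31, 9.56 and 9.70 in anterior and 8.92, 9.33 and 9.54 in posterior palate (difference -0.24, SE 0.11, adjusted p = 0.304, limma). The most positive was the dimmest H2-K1 probe set (1450534_x_at), at 4.16, 4.44 and 4.65 in anterior and 4.18, 4.69 and 5.06 in posterior palate (0.27, SE 0.14, adjusted p = 0.348, limma). The 8 heavy chain probe sets called for genotype differed by -0.11 to 0.11 between the regions. The spread is shared by all 3 groups in this fit, so mutant array 6 widens the region intervals too: the SE of H2-D1 (1451784_x_at) was 0.45, and 0.11 without that array. The absence of a call does not show that the regions are equal. The same regions differed in muscle, whose 14 marker genes were all called higher in posterior palate. Macrophage and leukocyte markers read higher there for 20 of 20 genes, and 2 were called, C1qb (0.62) and C1qa (0.60). Of 13 palate mesenchyme markers 1 was called higher and 3 lower, and of 18 stratified epithelium markers 1 was called lower.

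**Figure D3:**
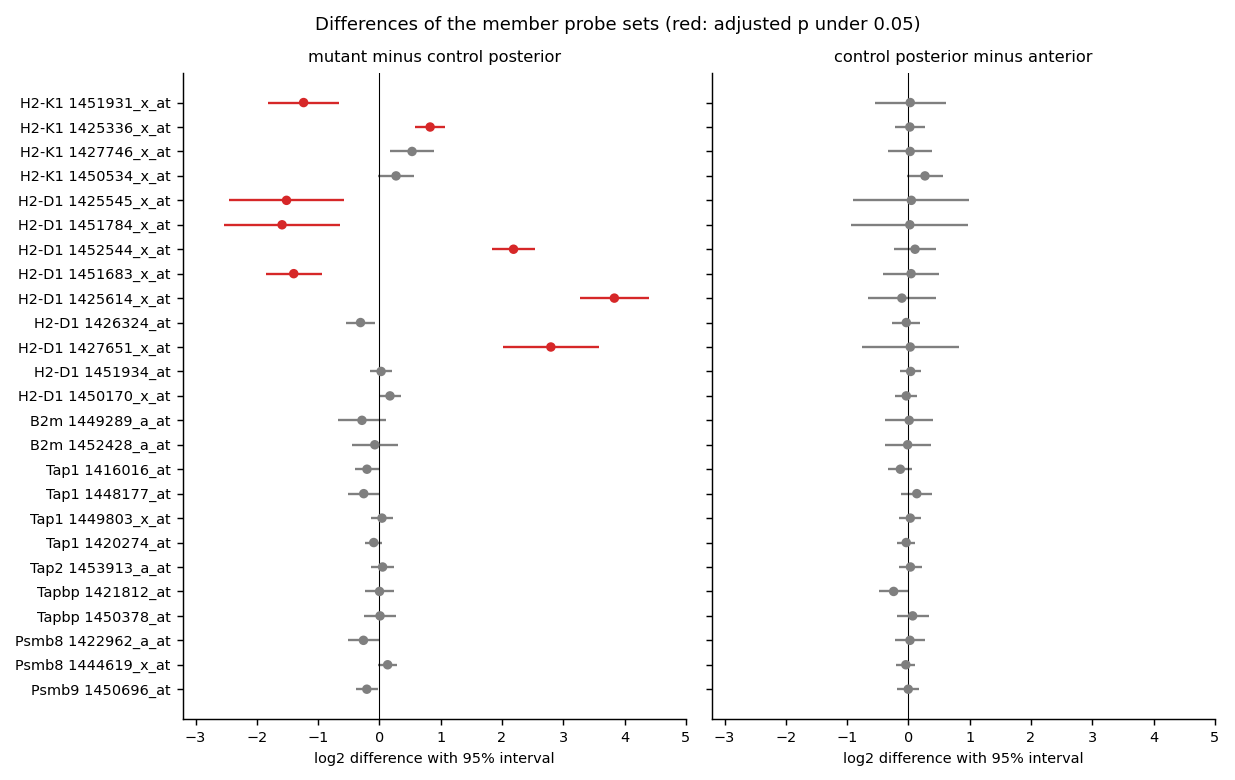
Log2 difference (x axis) of each of the 25 probe sets with its 95% interval from the fit, for mutant minus control posterior palate (left) and control posterior minus control anterior palate (right). Red marks the 8 called probe sets, all of H2-K1 and H2-D1 and in both directions on the left, and none is called on the right.

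Other genes around the pathway were taken as lists, each gene by its brightest probe set from the same fit. Of 200 such genes in 11 lists, 13 were called higher and 14 lower in mutant than in control posterior palate, against 12.3% called among all 18193 genes. No gene of these lists was called for region, where 2.81% of all genes were. The median of all genes was 0.04 for genotype and -0.02 for region. Most genotype calls did not hold in every setting. With the 4 array sets as a random block 2 of the 27 were called, Uggt1 and H2-Eb1, and with control arrays 1 to 3 alone as controls none was. Calls over all 45037 probe sets fell too, from 4835 to 1188 and 454, so the loss is not particular to these genes. Without mutant array 6, 25 were called, 22 of them shared with the 27, and the calls lost were those of Atat1, Col11a2, H2-Ab1, H2-Bl and Stk19. Leaving out posterior control array 2, 4, 5 or 6 left 15, 15, 10 and 16 calls, and 3467, 3156, 3104 and 3369 over all probe sets. With arrays centred on their medians 7 were called higher and 21 lower. No gene called both in the fit reported and in another setting turned its direction there. Genes that lost their call were not counted for this, and only 2 calls were shared with the set block and 0 with control arrays 1 to 3.

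Of 9 other class I heavy chain genes within the complex, 1 was called higher and 1 lower, and their median was 0.03. H2-Bl, a class I gene of the complex, read 3.94 ± 0.07 in control posterior palate and 4.45 ± 0.45 in mutants (difference 0.51, SE 0.16, adjusted p = 0.0494, limma), a low level throughout. H2-M3, which presents formylated peptides, read 6.44 ± 0.12 and 5.99 ± 0.33 (-0.45, SE 0.13, adjusted p = 0.0337). H2-Bl lost its call without mutant array 6 and with either rescaling, and H2-M3 kept it in each of these. Among 8 class I-like genes outside the complex, Cd1d2, a lipid-presenting molecule, was called higher (0.53, SE 0.13, adjusted p = 0.0128) and none lower, with a median of 0.15.

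Of 10 helpers of peptide loading outside the complex, 2 were called higher and none lower, and the median was 0.08. Uggt1, which checks glycoprotein folding, read 9.07 ± 0.10 in control posterior palate and 9.51 ± 0.12 in mutants (0.44, SE 0.07, adjusted p = 9.05e-04), with no overlap. Calr, the chaperone calreticulin, read 12.7 and 12.9 (0.24, SE 0.06, adjusted p = 0.0199), also with no overlap, though its call was lost when arrays were centred on their medians. Tapbpl, a relative of tapasin, differed by -0.35 and was not called (named for its role after its values were seen). The 5 peptidases that trim or destroy cytosolic peptides had a median of 0.14 and no call, Blmh at 0.20 (adjusted p = 0.0501) coming nearest.

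Of 3 proteasome genes of the inducible form outside the complex none was called, with Psme1, a subunit of the interferon-inducible activator, at -0.22 (adjusted p = 0.145) and Psmb10, the third inducible catalytic subunit, at -0.05 (adjusted p = 0.845). Of 16 genes of the constitutive proteasome and its nuclear activator, Psme4 was called higher (0.22) and the core subunits Psma1 (-0.28) and Psma6 (-0.32) lower, with a median of -0.05. Psmb5, Psmb6 and Psmb7, the catalytic subunits that the inducible ones replace, differed by -0.18, -0.07 and 0.34, and none was called (named for their role in the same way).

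Regulators of class I transcription showed no common direction. Of 16 measured, Rfxank, a subunit of the RFX complex, was called higher (0.30, adjusted p = 0.0411), and Nfya, a subunit of the factor that binds CCAAT, was called lower (-0.43, adjusted p = 0.0319). Irf9, a partner of STAT proteins in interferon signalling, was called lower as well (-0.38, SE 0.09, adjusted p = 0.0110). The median was 0.03. Nlrc5, the class I transactivator, read 3.90 ± 0.24 in control posterior palate and 4.01 ± 0.28 in mutants, and Irf1 read 8.06 ± 0.10 and 8.13 ± 0.21, and neither was called. These last 2 genes were chosen for their role and after their values were seen.

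Interferon signalling genes were mixed. Of 11 receptor and kinase genes, Ifngr2 (0.48, adjusted p = 0.0249), Jak1 (0.36, adjusted p = 0.0138) and Ifnar1 (0.33, adjusted p = 0.0245) were called higher and none lower, with a median of 0.11. Of 38 genes that interferon induces, 1 was called higher and 3 lower, and the median was -0.03. Eif2ak2, the kinase activated by double-stranded RNA, was the higher one (0.66, SE 0.15, adjusted p = 0.00927). Ifitm1, a membrane protein of the interferon-induced family, fell from 10.8 ± 0.13 to 9.82 ± 0.93 (SE of the difference 0.29, adjusted p = 0.0324), and Rtp4 (-0.50) and Oas1a (-0.37) were the others called lower. Ifngr2 differed by 0.75 in mutant arrays 1 to 3 alone and by 0.20 in arrays 4 to 6 alone, the latter not called.

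Class II genes, which present peptides taken up from outside the cell and are made mainly by professional antigen-presenting cells, included 2 called lower among 11. H2-Eb1 read 6.88 ± 0.13 in control posterior palate and 6.22 ± 0.29 in mutants (-0.66, SE 0.11, adjusted p = 0.00156), with no overlap. H2-Ab1 read 7.71 ± 0.21 and 7.20 ± 0.36 (-0.51, SE 0.15, adjusted p = 0.0339). The class II invariant chain Cd74 differed by 0.15 (adjusted p = 0.510) and the transactivator Ciita by -0.01, both named for their role after their values were seen. The median of the class II list was 0.02.

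**Figure D4:**
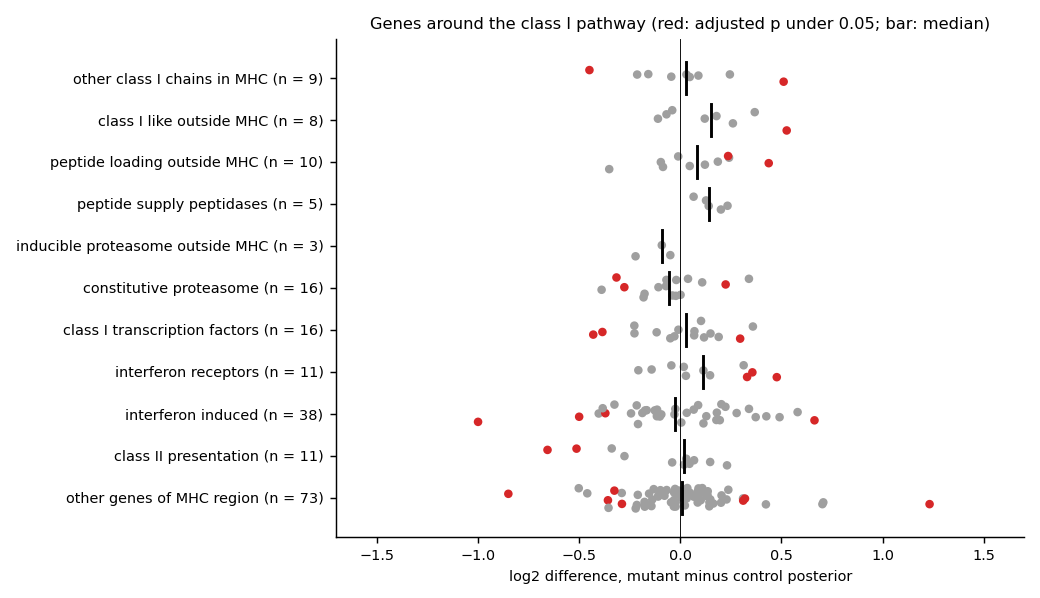
Log2 difference, mutant minus control posterior palate (x axis), of each measured gene in 11 lists around the class I pathway (y axis, with the number of genes), by its brightest probe set. Red points are called, black bars are the list medians, which lie between -0.09 and 0.15, and Vps52 (-0.85) and Col11a2 (1.23) are the outermost called points of the last list.

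Genes that share the chromosomal region without a part in presentation were set beside the heavy chains. Their 73 genes had 116 probe sets, of which 7 were called higher and 6 lower, 11.2% in all, and mutant and control posterior values did not overlap in 9 (7.76%). A difference of over 1 in either direction was seen in 2 of the 116, Col11a2 and Ly6g6c, the latter named after its values were seen. Col11a2, a cartilage collagen gene, read 7.26 ± 0.38 and 8.49 ± 0.78 (1.23, SE 0.36, adjusted p = 0.0343, limma). The number of probe sets over 1 was 7 of 13 for the heavy chains, values that may have chosen them.

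Vps52, a subunit of the GARP tethering complex whose gene lies close to H2-K1, had the pattern most like that of the bright heavy chain probe sets outside the list. Likeness was Pearson's r over the 18 arrays after each group's mean was subtracted, as a description. For H2-K1 (1451931_x_at) it was 0.922 and for H2-D1 (1425545_x_at) 0.907, and both rested on 1 array: without mutant array 6 they were 0.143 and -0.243 over 17 arrays. Vps52 (1447894_x_at) read 7.91 to 8.23 in control posterior palate, 7.27 to 7.91 in mutant arrays 1 to 5 and 5.70 in mutant array 6, with a mean difference of -0.85 (SE 0.24, adjusted p = 0.0302, limma) that was -0.55 without mutant array 6. By probe set 1437078_at the gene went up, from 5.44 to 5.73 in control posterior palate to 5.76 to 6.28 in mutants (0.42, SE 0.08, adjusted p = 0.00184, limma). The next genes most like H2-K1 were Atp5o (0.888), Pex19 (0.879), Mrps18b (0.874), Cox5b (0.853) and Coq7 (0.834), and those most like H2-D1 after Vps52 were Mrps18b, Atp5o, Pex19, Coq7 and Vdac1. Without mutant array 6 these correlations lay between -0.05 and 0.54.

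B2m had other companions. The genes most like its brightest probe set were Zfp521 (r = 0.955), Cnpy4 (0.951), Aplnr (0.948), Jcad (0.945), Fgfr1 (0.942) and Pdgfrb (0.930), over the same 18 arrays. These held without mutant array 6, at 0.912 to 0.949. Pdgfrb and Fgfr1 are receptors for platelet-derived and fibroblast growth factors, and Aplnr is the apelin receptor. All arrays share the normalisation and, within each genotype, the sets described above.

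Markers of the cells that could carry class I are given as mean log2 levels per array over each list. Macrophage and leukocyte markers (20 of 20 measured) averaged 8.18 to 8.51 in control posterior palate and 8.10 to 8.76 in mutants, and mutant array 6 stood at 8.51, inside the control range. Among them Cd52, a leukocyte surface protein, was called lower (-1.17, SE 0.15), as was the complement gene C1qb (-0.68, SE 0.12), while the myeloid factor Spi1 (0.39) and the chemokine receptor Cx3cr1 (0.37) were called higher. T cell, natural killer cell and dendritic cell markers (18 of 20 measured) averaged 4.84 to 4.99 and 4.82 to 5.26, with no call. Endothelial markers (14 of 14) averaged 7.68 to 8.05 and 7.35 to 8.28, with 1 called higher and 1 lower. Mutant array 6 had the highest endothelial and mesenchymal averages of its group, at 8.28 and 9.87.

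Stratified epithelium markers (18 of 19 measured) averaged 6.84 to 7.57 in control posterior palate and 7.70 to 9.58 in mutants, and 12 of 18 were called higher. Basal and simple epithelium markers (17 of 17) averaged 10.9 to 11.3 and 9.02 to 11.6, with the lowest in mutant array 1 and no call. Muscle markers (14 of 14) averaged 9.72 to 10.9 and 9.63 to 12.2, with the lowest in mutant array 6 and 1 called higher, Ckm (2.36). Palate mesenchyme markers (13 of 13) averaged 9.38 to 9.71 and 8.98 to 9.87, with 1 called higher, Col1a2 (0.47). Erythroid markers (8 of 11) averaged 7.19 to 7.66 and 6.23 to 7.80, and the embryonic globins Hbb-y (-2.93) and Hba-x (-1.40) were called lower. The part of tissue makeup in the class I values was not tested.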

How the data were processed

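Each deposited value is a log2 intensity per probe set. The submitters' processing notes name RMA, without a version, as the method the authors used. RMA subtracts background, equalises the distributions of the arrays by quantiles and summarises the probes of a set, so a shift common to most genes is lost. No scanner file was used here, and the number of arrays limits the precision. The platform annotation, updated by Entrez number through RefSeq (no symbol changed), gave 34945 probe sets 1 symbol and 932 several, with 9160 unlisted. The 64 spike-in probe sets stayed out of the tests, as did the 5 probe sets on which a member symbol stands among several.

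Differences were fitted with limma 3.58.1 in R 4.3.3 (lmFit and eBayes, 2-sided, 15 residual degrees of freedom, no covariate) over all 45037 probe sets, with Benjamini-Hochberg adjustment over all of them and calls at an adjusted p under 0.05. A list gene stood by its brightest probe set, and 329 of 373 listed genes were measured. The script was tested on simulated data. Figures were drawn with matplotlib 3.10.9.

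The members and lists were chosen with earlier results of these data known. Genes were named by a rule: all member probe sets, from each list up to 4 called genes with the largest difference or, in lists without a call, up to 2 with the lowest p, and the 6 genes most like each of B2m, H2-K1 and H2-D1. Exceptions are marked. Array-set alternatives come from spike-in controls seen in those earlier results, and the counts of list genes under each alternative were added after seeing the data.

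Equal replicate numbers were checked for pairing. Deviations from group means correlated at 0.111 to 0.430 between anterior and posterior controls, over 0.1 for 6 of 6 numbers, which meets the rule for pairing from the data and not from the labels. The region values reported carry no block, since the block, fitted over all 3 groups, changed no member's call. Between mutant and control posterior arrays they ran from -0.222 to 0.157, over 0.1 in 2 of 6, and were not taken as pairs.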

Additional observations from a re-analysis of the deposited data

Results flagged for a closer look

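Each of the 25 probe sets was checked in each of the 3 groups for an array far from the other 5. Of 75 checks 6 found one, where chance gives about 1 in 20 for independent checks. These checks are not independent, so the count is not read against that rate. Mutant array 6 accounted for 3 of the 6. The probe sets of those 3 varied together over the 18 arrays (r = 0.980 to 0.993, and 0.66 to 0.83 without mutant array 6). In H2-K1 (1451931_x_at) it read 6.25 where the other mutants read 8.26 to 8.60. In H2-D1 it read 5.00 (1425545_x_at) where the others read 8.38 to 8.70, and 4.87 (1451784_x_at) where they read 8.25 to 8.74.

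The other 3 were in control groups. In H2-K1 (1425336_x_at) posterior control array 6 read 8.28 against 8.46 to 8.56. In Tap1 (1416016_at) anterior control array 4 read 7.43 against 6.93 to 7.09, and in Tap1 (1420274_at) posterior control array 5 read 3.15 against 2.89 to 2.99.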

How the results depend on the processing

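The count of 8 member probe sets called for genotype fell to 5 with the 4 array sets as a random block, to 3 with control arrays 1 to 3 alone and to 5 with control arrays 4 to 6 alone. With 1 brightest probe set per gene it was 2 of 8 genes, both lower, and with the mean of a gene's probe sets 1 of 8, H2-D1 higher at 0.47, which follows from averaging probe sets of opposite sign. It rose to 12 with mutant arrays 1 to 3 alone, 11 with mutant arrays 4 to 6 alone and 10 with array weights. Mutant arrays 1 to 3 added calls of B2m, Tap1 and H2-D1 (1426324_at and 1450170_x_at). Mutant arrays 4 to 6 added Psmb8, Psmb9 and H2-K1 (1427746_x_at), and array weights added Psmb8 and the same H2-K1 probe set. Over all 45037 probe sets 11803, 5593 and 6172 were called in these settings, against 4835 in the fit reported. Leaving out 1 array in turn gave 6 to 9 calls. The block cost the calls of the bright probe sets of H2-K1 (1451931_x_at, adjusted p = 0.0758) and H2-D1 (1425545_x_at and 1451784_x_at, adjusted p = 0.201 and 0.189, limma). Leaving out any of posterior control arrays 1 to 5 cost those of H2-D1 1425545_x_at and 1451784_x_at, and leaving out array 6 that of 1425545_x_at, with adjusted p up to 0.0744 (limma). The cause was not tested. The replicate block left 8 calls for genotype and 0 for region, and changed no member's call. For region no setting gave a member call, and no called member turned its direction. Over all probe sets 60.0% of genotype calls were higher in mutants, 41.9% with median centring and 49.2% after cyclic loess.

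List genes called for genotype, 27 in the fit reported, numbered 17 with the 12 compared arrays, 2 with the set block, 52 with mutant arrays 1 to 3 alone, and 0 and 4 with control arrays 1 to 3 and 4 to 6 alone. Calls over all 45037 probe sets numbered 4835 in the fit reported and 2978, 1188, 11803, 454 and 1553 in these settings, in the same order. Leaving out 1 array gave 10 to 33 calls of list genes. For region, 0 became 1 with brightest probe sets or the dim filter, 21 with array weights, 6 with the compared arrays, 2 with the set block and 0 to 2 on leaving out 1 array. Region calls over all probe sets rose from 837 to 4936 with array weights, 3118 with the compared arrays and 1651 with the set block. Dim signal limits the rest: 15 of the 25 member probe sets lay above the overall median level.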
